A study of Mus musculus with 8 samples.

Results

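The nuclear-encoded genes of the mitochondrial respiratory chain were followed in mouse liver given an adenovirus labelled AdLeXis or one labelled AdGFP. The members are the 90 genes whose array name began with Nduf and a, b, c, s or v, with Sdha, Sdhb, Sdhc or Sdhd, with Uqcr, with Cox4 to Cox8 and a subunit letter, or with Atp5, leaving out Cox6b2, of 34947 gene names on the array. They had 133 probes. Total RNA was hybridised to 8 one-colour Agilent expression arrays, 4 per group. AdLeXis is labelled for LeXis, a long non-coding RNA, and AdGFP carries the label of green fluorescent protein. Both groups were livers of bl6 mice, 12 weeks old and on chow, with RNA taken on day 6. The treatment text of the labels speaks instead of other vectors, one a control and one directed at Raly, so the groups follow the treatment tag, the titles and the series design. The labels name no promoter for the viral inserts, and do not say whether the arrays of a group came from different mice. Each p-value therefore sees only the variation among these arrays, part of which may be technical.

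The respiratory chain sits in the inner mitochondrial membrane. Complex I takes electrons from NADH and complex II takes them from succinate. Both pass them through ubiquinone to complex III, which passes them through cytochrome c to complex IV, where oxygen is reduced to water. Complexes I, III and IV pump protons, and complex V, the ATP synthase, lets the protons back and makes ATP. Most subunits are encoded in the nucleus, translated in the cytosol and imported, while a few core subunits are encoded in mitochondrial DNA. In liver the chain also disposes of the electrons released by fatty acid oxidation.

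Signal differed between the groups before scaling. Its 75th percentile lay between 381 and 448 for AdLeXis and between 220 and 297 for AdGFP, and 62.6% to 67.7% of spots in AdLeXis and 58.9% to 62.5% in AdGFP passed the scanner's test for being well above background. Saturated spots numbered 0 on every array. All 8 arrays lay on 1 slide, with the AdLeXis arrays in row 2 and the AdGFP arrays in row 1, so slide row and group cannot be told apart. All 12 hepatocyte markers were well above background. Their summed level ran from 20.74 to 20.95 on the log2 scale in AdLeXis and from 21.30 to 21.37 in AdGFP, with 8 of 12 lower and 0 higher in AdLeXis (limma), but 1 lower under quantile scaling. The 11 T and NK cell markers summed to 13.01 to 13.12 in AdLeXis and 13.98 to 14.08 in AdGFP, with 10 of 11 lower and 0 higher (limma). Of the Kupffer cell and macrophage markers 5 of 11 were lower and 0 higher (8 lower with the array median), with sums of 16.32 to 16.64 in AdLeXis and 16.56 to 16.95 in AdGFP, and of the stellate cell and fibroblast markers 2 of 8 were lower and 0 higher. Of all genes tested, 8.77% were lower and 8.73% higher (8.98% lower with quantile scaling, 11.2% with the array median). The part of the marker shifts in the results below was not tested. In a bulk liver sample fewer cells of a type and less RNA per cell cannot be told apart.

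Most nuclear genes of the chain did not pass the test between AdLeXis and AdGFP livers. Of the 90 members, 88 were tested, being well above background on 4 or more arrays. In AdLeXis livers 9 rose and 1 fell at a limma adjusted p under 0.05, or 11.4% of those tested, where 17.5% of all 23999 genes tested were called, 8.73% higher and 8.77% lower. Those that rose were the complex I subunits Ndufv1, Ndufa8 and Ndufb3, the complex I assembly factor Ndufaf1, the complex IV subunits Cox7a1, Cox8b, Ndufa4 and Cox7c, and the ATP synthase subunit Atp5o. Cox8b is counted here, but it met the filter only through its AdLeXis arrays, being well above background on 4 of them and on 0 AdGFP arrays. Its call is therefore no support for a rise. Cox6a2, a complex IV subunit, fell. Scaling on the array median in place of the 75th percentile gave 3 higher and 3 lower members, beside 4.82% and 11.2% of all genes. Quantile scaling gave 28 higher and 2 lower members, beside 8.77% and 8.98% of all genes. Cyclic loess gave 19 higher and 2 lower members, beside 9.33% and 8.65% of all genes, and normexp background correction gave 33 higher and 4 lower members, beside 12.6% and 40.4% of all genes. With no filter on dim probes, where more genes entered the adjustment, Ndufa4, Cox7c, Atp5o and Ndufaf1 were no longer called (limma adjusted p = 0.0656 to 0.0936). Leaving out 1 array at a time left 4 to 8 members higher: 4 without AdLeXis replicate 4, 8 without AdLeXis replicate 1 and 5 without each of the other 6 arrays.

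The differences were small. The median log2 difference (AdLeXis minus AdGFP) over the 88 members was 0.11, against 0.00 over all genes tested. It was above 0 for 69 members and below 0 for 19, and for all genes 49.7% lay above 0. The 4 AdLeXis arrays lay above all 4 AdGFP arrays for 21 members and below them for 6, together 30.7% of those tested, where this held for 24.7% of all genes (12.4% above and 12.3% below). Without adjustment 26 members had a limma p under 0.05, which is 29.5% of members, against 32.1% of all genes. For 80 of 88 members (90.9%) the whole 95% confidence interval lay within a 1.5-fold change in either direction, which held for 54.3% of all genes. Only Cox7a1, Cox8b and Cox6a2 differed by more than 1.5-fold among the members tested, or 3.41% of them, against 13.5% of all genes. The intervals reached a median of 0.21 to either side for members and 0.30 for all genes. Members also had brighter probes (median log2 signal 14.5, against 7.72), so these shares do not compare genes of like signal. The fold of Cox8b was taken against AdGFP signals not well above background.

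**Figure D1:**
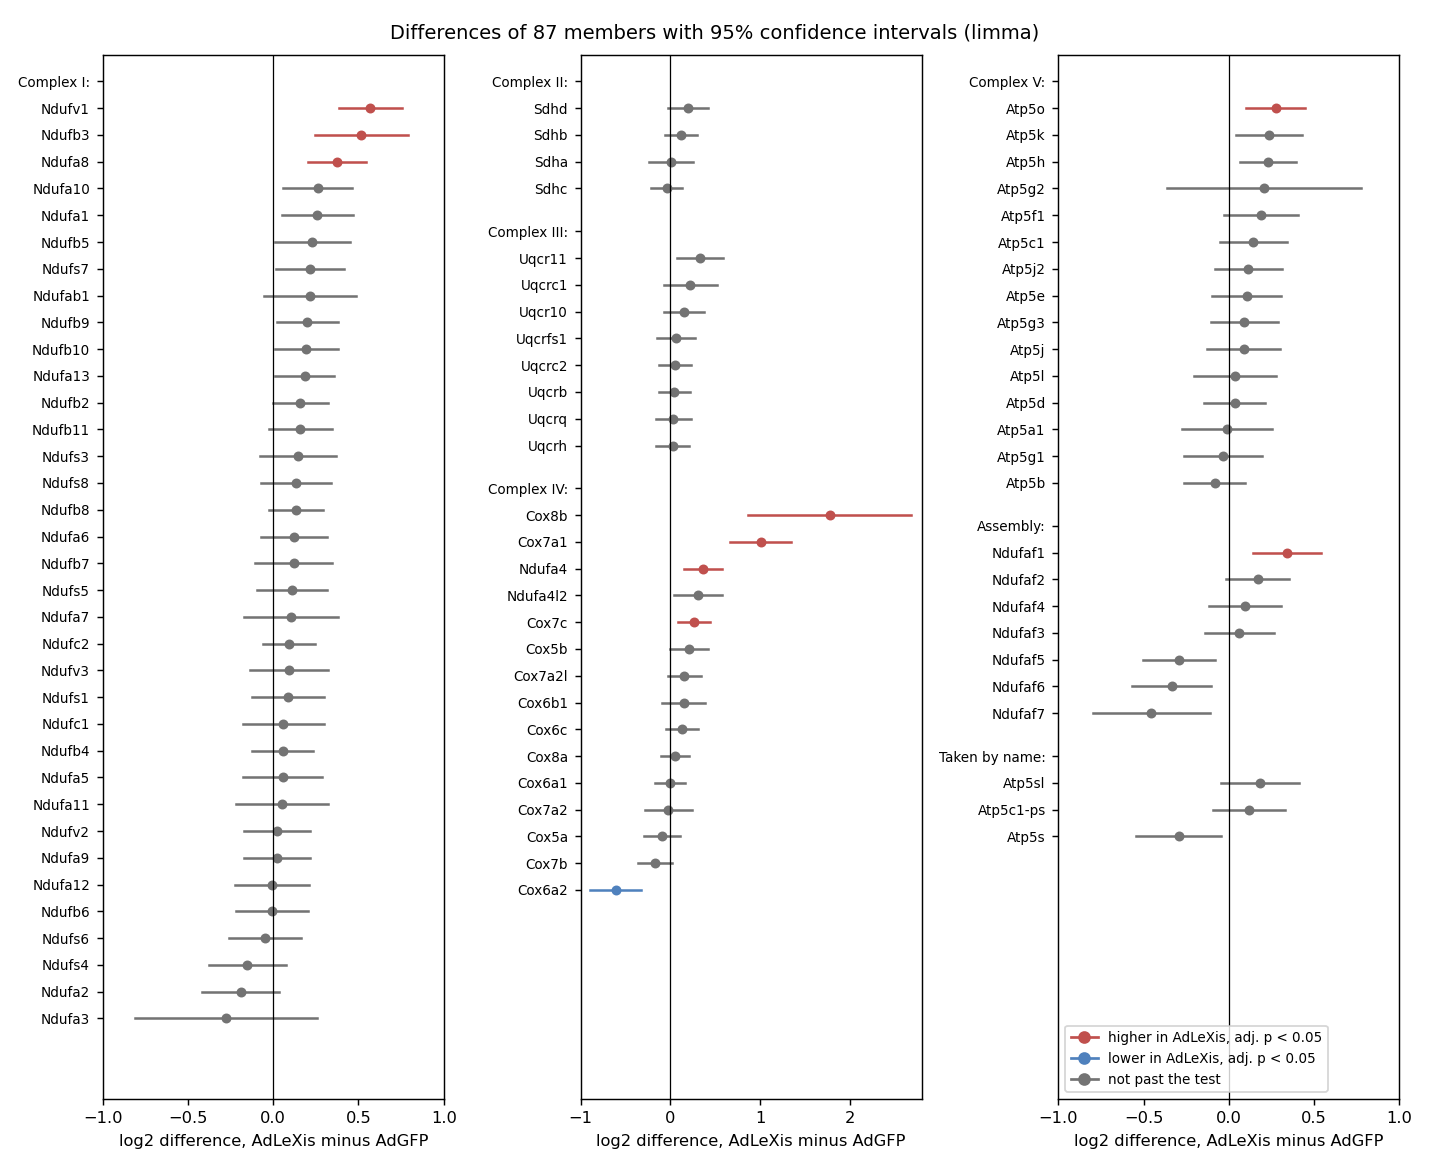
Log2 difference, AdLeXis minus AdGFP, of 87 of the 88 members tested, each with its 95% confidence interval from limma, by complex; the axis of the middle panel runs further to the right. Red marks the 9 members that rose, blue Cox6a2, which fell, and grey members that did not pass the test.

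Many promoters of this family are known to carry sites for NRF1, and for ETS factors such as GABP. Promoters of 75 of the 90 members were found in RefSeq (GRCm38.p6), with 81 start sites among them. The 250 bases before each start were searched on both strands for the NRF1-type letters GCGCA and GCGC with any 1 base between them and for the ETS-type letters CCGGAAG. The first was present at 15 of 81 member starts (18.5%) and at 3.74% of all 32851 starts in the table, and the second at 13 (16%) and 6.91%. Among starts of called members, 1 of 9 held the first and 1 of 9 the second, against 14 and 12 of 71 among members not called. The YY1-type letters AAGATGGCG were present at 2 member starts (2.47%) and 0.606% of all starts, and a TATAAA box at 7 member starts (8.64%) and 12.4% of all starts. Printed 5′ to 3′ are the windows of Ndufv1 and Cox7a1, which were called in every alternative run, and of Ndufa8 and Ndufaf1, the called members with a match. Capitals mark the match, 1 in each and none overlapping another, NRF1-type in Ndufa8 and ETS-type in Ndufaf1, and the windows of Ndufv1 and Cox7a1 held neither.
Ndufv1 (chr19:4012756-4013005, minus strand): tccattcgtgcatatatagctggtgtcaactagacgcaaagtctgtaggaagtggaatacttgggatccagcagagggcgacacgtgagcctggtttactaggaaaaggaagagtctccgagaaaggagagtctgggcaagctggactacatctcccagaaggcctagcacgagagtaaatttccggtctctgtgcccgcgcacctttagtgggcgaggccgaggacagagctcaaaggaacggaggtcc
Cox7a1 (chr7:30183921-30184170, plus strand): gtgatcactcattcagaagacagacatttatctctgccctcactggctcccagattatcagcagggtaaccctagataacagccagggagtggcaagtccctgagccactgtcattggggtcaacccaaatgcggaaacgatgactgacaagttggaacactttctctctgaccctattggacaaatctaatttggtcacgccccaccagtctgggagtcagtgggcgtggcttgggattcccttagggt
Ndufa8 (chr2:36049339-36049588, minus strand): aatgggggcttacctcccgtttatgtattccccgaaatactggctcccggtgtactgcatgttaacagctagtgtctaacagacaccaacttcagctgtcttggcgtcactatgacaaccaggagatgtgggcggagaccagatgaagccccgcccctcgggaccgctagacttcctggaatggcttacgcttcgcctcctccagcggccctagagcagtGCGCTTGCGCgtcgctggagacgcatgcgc
Ndufaf1 (chr2:119662835-119663084, minus strand): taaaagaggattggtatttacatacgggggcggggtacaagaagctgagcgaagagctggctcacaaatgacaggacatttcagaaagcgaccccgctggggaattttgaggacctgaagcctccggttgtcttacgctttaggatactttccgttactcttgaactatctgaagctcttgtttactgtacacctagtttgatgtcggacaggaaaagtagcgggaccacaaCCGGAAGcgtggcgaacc
The other called members with an entry in the table, Ndufb3, Cox8b, Ndufa4, Cox7c and Atp5o, had no match in this window. A match is a description of the letters and says nothing of binding in these livers.

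Complex I, the NADH dehydrogenase, had 36 members, of which 3 rose, 0 fell and 33 did not pass. Those that rose were 8.33%, where 8.73% of all genes rose and 8.77% fell. Counts of members beside genes of like signal are given further below. Under other scalings there were 1 higher and 0 lower with the array median, 12 higher and 0 lower with quantile scaling, 9 higher and 0 lower with loess and 15 higher and 0 lower with normexp. Of all genes, 4.82%, 8.77%, 9.33% and 12.6% were higher in these settings. The mean over the members of complex I was 14.47, 14.56, 14.54 and 14.48 on the AdLeXis arrays, against 14.34, 14.44, 14.46 and 14.32 on the AdGFP arrays, on the log2 scale. The groups did not overlap, but the lowest AdLeXis array was only just above the highest AdGFP array. The median difference was 0.12, and it stayed above 0 in each scaling tried (0.04 with the array median, 0.21 with quantile scaling). By module the median was 0.05 for the 10 subunits of the NADH-oxidising module, or -0.03 with the array median, 0.14 for the 6 of the ubiquinone-binding module and 0.16 for the 20 of the membrane arm, where the acyl carrier Ndufab1 is counted.

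Ndufv1 binds the flavin that takes the electrons from NADH. Its probe (chromosome 19, 4007508 to 4007567, mm9) gave 15.62, 15.87, 15.78 and 15.73 on the AdLeXis arrays, against 15.16, 15.23, 15.21 and 15.13 on the AdGFP arrays. All AdLeXis arrays were well clear of all AdGFP arrays. The means were 15.75 ± 0.10 in AdLeXis and 15.18 ± 0.05 in AdGFP (SD, n = 4 each), a log2 difference of 0.57 (SE 0.08, 95% confidence interval 0.39 to 0.75, limma adjusted p = 0.00341), or 1.48-fold. It was called in each of the 18 alternative fits run. Others of its module did not pass. Ndufs1, which holds iron-sulphur clusters of the same module, gave 14.20, 14.53, 14.44 and 14.34 on the AdLeXis arrays, against 14.29, 14.28, 14.39 and 14.21 on the AdGFP arrays, and the groups overlapped. Its difference was 0.09 (SE 0.09, 95% confidence interval -0.13 to 0.30, limma adjusted p = 0.577). Ndufv2, the subunit paired with Ndufv1, differed by 0.02 (limma adjusted p = 0.887). Under normexp Ndufv2 differed by 0.46 and was called higher (limma adjusted p = 0.00775).

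Ndufa8 and Ndufb3 are accessory subunits of the membrane arm. Ndufa8 (chromosome 2, 35891871 to 35891930, mm9) gave 11.70, 11.78, 11.64 and 11.72 on the AdLeXis arrays, against 11.42, 11.32, 11.32 and 11.27 on the AdGFP arrays, with no overlap. The difference was 0.37 (SE 0.07, 95% confidence interval 0.20 to 0.54, limma adjusted p = 0.012), and the call was lost only with the array median (adjusted p = 0.0929) among the 18 alternatives. Ndufb3 (chromosome 1, 58652622 to 58652681, mm9) gave 14.26, 14.46, 14.27 and 14.38 on the AdLeXis arrays, against 13.73, 13.89, 14.10 and 13.59 on the AdGFP arrays. Its AdGFP arrays spread more widely than its AdLeXis arrays, and the groups did not overlap. The difference was 0.52 (SE 0.12, 95% confidence interval 0.24 to 0.79, limma adjusted p = 0.0219). The call was lost with the array median (adjusted p = 0.0843), and leaving out AdGFP replicate 1, AdLeXis replicate 2 or AdLeXis replicate 4 gave adjusted p = 0.0593, 0.0591 and 0.0605 (limma). Ndufa10, another accessory subunit of the membrane arm, came next in the complex by p, at 0.26 (SE 0.09, 95% confidence interval 0.06 to 0.46, limma adjusted p = 0.0813). With quantile scaling, loess and normexp it was called higher (limma adjusted p = 0.0366, 0.0316 and 0.000798), as were Ndufa1, an accessory subunit of the same arm, and Ndufs7, which holds an iron-sulphur cluster. The lowest AdLeXis array of Ndufa10, 12.97, lay below its highest AdGFP array, 12.99. A further 28 members of complex I differed by -0.19 (Ndufa2) to 0.26 (Ndufa1), and none was called with the 75th percentile, with adjusted p of 0.0869 and above (limma).

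Complex II, succinate dehydrogenase, is encoded wholly in the nucleus and also serves the tricarboxylic acid cycle. None of its 4 genes passed limma's test (0 higher, 0 lower), and none had an unadjusted p under 0.05 (0 of 4). Sdha, the flavoprotein, gave 13.85, 14.28, 14.25 and 14.00 on the AdLeXis arrays, against 14.09, 14.06, 14.13 and 14.07 on the AdGFP arrays. The AdLeXis arrays spanned the AdGFP arrays. The difference was 0.01 (SE 0.11, 95% confidence interval -0.24 to 0.26, limma adjusted p = 0.969). Sdhb, the iron-sulphur subunit, differed by 0.12 (SE 0.08, 95% confidence interval -0.06 to 0.29, limma adjusted p = 0.342). With quantile scaling and normexp Sdhb was called higher (limma adjusted p = 0.0305 and 0.00245), 1 of 4 in each, where 8.77% and 12.6% of all genes were. With the array median and loess 0 of 4 were called. The membrane anchors Sdhc and Sdhd differed by -0.04 (limma adjusted p = 0.751) and 0.20 (limma adjusted p = 0.204). The median over the 4 was 0.06, and -0.02 with the array median.

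Complex III, the cytochrome bc1 complex, had 8 members, and none passed limma's test (0 higher, 0 lower), with 1 of 8 at an unadjusted p under 0.05. That one, Uqcr11, a small subunit, gave 15.93, 15.89, 15.86 and 15.80 on the AdLeXis arrays, against 15.53, 15.64, 15.75 and 15.26 on the AdGFP arrays, and the groups did not overlap. Its difference was 0.33 (SE 0.11, 95% confidence interval 0.07 to 0.58, limma adjusted p = 0.081). With quantile scaling, loess and normexp it was called higher (limma adjusted p = 0.014, 0.0237 and 0.00365). Uqcrfs1, the Rieske iron-sulphur protein, gave 13.82, 14.09, 14.16 and 13.91 on the AdLeXis arrays, against 13.95, 13.94, 13.93 and 13.92 on the AdGFP arrays. The AdGFP arrays lay close together and the AdLeXis arrays on both sides of them. Its difference was 0.06 (SE 0.09, 95% confidence interval -0.15 to 0.28, limma adjusted p = 0.705). The core proteins Uqcrc1 and Uqcrc2 differed by 0.23 (limma adjusted p = 0.267) and 0.05 (limma adjusted p = 0.691), and the small subunit Uqcr10 by 0.15 (limma adjusted p = 0.321). The median over the 8 was 0.06, and -0.03 with the array median. Under normexp, 5 of the 8 were called higher, among them Uqcrc1 (0.74), where 12.6% of all genes were.

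Complex IV, cytochrome c oxidase, had 15 members tested, of which 4 rose, Cox8b among them, and 1 fell, where 8.73% of all genes rose and 8.77% fell. Under other scalings there were 2 higher and 1 lower with the array median, 7 higher and 1 lower with quantile scaling, 5 higher and 1 lower with loess and 5 higher and 2 lower with normexp. Of all genes, 4.82%, 8.77%, 9.33% and 12.6% were higher in these settings, and 11.2%, 8.98%, 8.65% and 40.4% lower. Over the 15 members the median difference was 0.15, with Cox8b at its fitted value or at the bound given below. Cox8b, which was well above background on AdLeXis arrays only, is left out of the mean by array. Over the other 14 members the mean log2 signal was 13.66, 13.74, 13.68 and 13.72 on the AdLeXis arrays, against 13.54, 13.62, 13.61 and 13.54 on the AdGFP arrays, where the lowest AdLeXis array was just above the highest AdGFP array. Some of its subunits come in isoforms, and Cox6a2, Cox7a1 and Cox8b are those of heart and skeletal muscle, while Cox6a1, Cox7a2 and Cox8a are the forms of liver and most other tissues. Of the muscle isoforms Cox7a1 rose and Cox6a2 fell, both measured in each group, while Cox8b was tested against AdGFP signals not well above background. Over the 10 widely expressed subunits 2 rose, 0 fell, the median was 0.09 (0.01 with the array median), and the mean by array was 15.05, 15.17, 15.16 and 15.11 on the AdLeXis arrays, against 14.99, 15.09, 15.10 and 14.97 on the AdGFP arrays, where the groups overlapped.

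Cox7a1 (chromosome 7, 30970337 to 30970948, mm9) gave 10.67, 10.60, 10.42 and 11.03 on the AdLeXis arrays, against 9.54, 9.75, 9.51 and 9.89 on the AdGFP arrays, with no overlap. Its means were 10.68 ± 0.25 in AdLeXis and 9.67 ± 0.18 in AdGFP (SD, n = 4 each), a difference of 1.01 (SE 0.15, 95% confidence interval 0.67 to 1.34, limma adjusted p = 0.00382), or 2.01-fold. It was called in all 18 alternatives, with differences of 0.89 to 1.09. Cox6a2 (chromosome 7, 135349160 to 135349219, mm9) went the other way. Its probe gave 6.60, 6.39, 6.30 and 6.83 on the AdLeXis arrays, against 7.16, 7.16, 7.19 and 7.05 on the AdGFP arrays, and every AdLeXis array was below every AdGFP array. Its means were 6.53 ± 0.24 in AdLeXis and 7.14 ± 0.06 in AdGFP (SD, n = 4 each), a difference of -0.61 (SE 0.12, 95% confidence interval -0.89 to -0.33, limma adjusted p = 0.013), or 0.655-fold, and it too was called in all 18 alternatives. Cox8b (chromosome 7, 148084852 to 148084911, mm9) was well above background on all 4 AdLeXis arrays and on none (0) of the 4 AdGFP arrays. Its signals were 3.38, 3.62, 3.88 and 3.56 on the AdLeXis arrays, against 1.74, 2.20, 0.63 and 2.76 on the AdGFP arrays, the AdGFP values having only a bound. Against that bound, a mean of 2.04, the AdLeXis mean was 2.97-fold higher. The bound is no detection limit, since AdGFP replicate 4, at 2.76, was still not well above background. It therefore sets no lower limit on the fold. The measured means were 3.61 ± 0.21 in AdLeXis and 1.83 ± 0.90 in AdGFP (SD, n = 4 each), and the fit gave limma adjusted p = 0.019. The probe met the filter only through the AdLeXis arrays, where it was high, so this p-value is no support for a rise. Under normexp Cox8b was called lower, at -0.34 (limma adjusted p = 0.0289), in a setting that moved the median of all genes to -0.19.

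These isoforms also mark muscle and brown fat, so markers of both tissues were read beside them. Of 13 muscle markers, 5 (Myh1, Myh4, Ckm, Mb and Mylpf) never stood well above background. The summed level of those tested ran from 8.07 to 8.36 on the log2 scale in AdLeXis and from 8.28 to 8.54 in AdGFP, and the ranges overlapped. Of the 8 tested, 0 rose and 1 fell (Tnni2, -0.55 (limma adjusted p = 0.00718)), where 8.73% of all genes rose and 8.77% fell. The differences of the 8 ran from -0.55 to 1.04, 4 above 0 and 4 below, with a median of -0.03. Of 4 brown fat markers, Ucp1 and Dio2 never stood well above background, and Cidea and Elovl3 differed by 1.04 (limma adjusted p = 0.171) and -0.53 (limma adjusted p = 0.374). Those tested summed to 10.15 to 12.04 in AdLeXis and 11.81 to 12.00 in AdGFP, with overlap, and what part either marker set has in the isoform values was not tested. The testis isoforms Cox7b2 and Cox8c never stood well above background either and were not tested.

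The liver forms of the same subunits did not pass. Cox6a1 gave 17.70, 17.67, 17.68 and 17.82 on the AdLeXis arrays, against 17.66, 17.78, 17.75 and 17.69 on the AdGFP arrays, with overlap. Its difference was 0.00 (SE 0.07, 95% confidence interval -0.18 to 0.17, limma adjusted p = 0.976), though with quantile scaling it was 0.43 (adjusted p = 0.0133). Cox7a2 differed by -0.02 (SE 0.11, 95% confidence interval -0.28 to 0.24, limma adjusted p = 0.917). For Cox8a the difference was 0.05 (SE 0.07, 95% confidence interval -0.10 to 0.21, limma adjusted p = 0.651), and with quantile scaling and normexp it was called higher (limma adjusted p = 0.0181 and 0.0409). Of the other widely expressed subunits, Cox5a differed by -0.09 (limma adjusted p = 0.509) and Cox6c by 0.13 (limma adjusted p = 0.309), and all 4 AdLeXis arrays of Cox6c lay above all 4 AdGFP arrays. Cox5b, Cox6b1, Cox7b and the supercomplex factor Cox7a2l differed by -0.17 (Cox7b) to 0.21 (Cox5b). All 4 AdLeXis arrays of Cox7b lay below all 4 AdGFP arrays. Of all genes, 12.4% had all AdLeXis arrays above and 12.3% all below.

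Ndufa4, once counted with complex I and now placed in complex IV, gave 14.49, 14.68, 14.73 and 14.69 on the AdLeXis arrays, against 14.41, 14.16, 14.36 and 14.21 on the AdGFP arrays. The groups did not overlap. Its difference was 0.36 (SE 0.09, 95% confidence interval 0.15 to 0.58, limma adjusted p = 0.0327), but the call was lost with the array median (adjusted p = 0.13) and when AdLeXis replicate 2, 3 or 4 or AdGFP replicate 2, 3 or 4 was left out (adjusted p = 0.0527 to 0.0853). Its relative Ndufa4l2, known to be induced by low oxygen, differed by 0.31 (SE 0.12, 95% confidence interval 0.04 to 0.58, limma adjusted p = 0.11). Cox7c, a small subunit named here because it was called, gave 14.70, 14.64, 14.76 and 14.65 on the AdLeXis arrays, against 14.32, 14.51, 14.46 and 14.41 on the AdGFP arrays. There was no overlap, and the difference was 0.26 (SE 0.08, 95% confidence interval 0.09 to 0.44, limma adjusted p = 0.0492). Its call stood at the threshold: it was lost with the array median (adjusted p = 0.248) and whichever array was left out (adjusted p = 0.0713 to 0.118). Of its other kept probes, one differed by 0.12 and one, well above background on 2 arrays of each group, by -0.80. The mean over its probes differed by -0.14 (limma adjusted p = 0.659), so that its direction turned too.

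**Figure D2:**
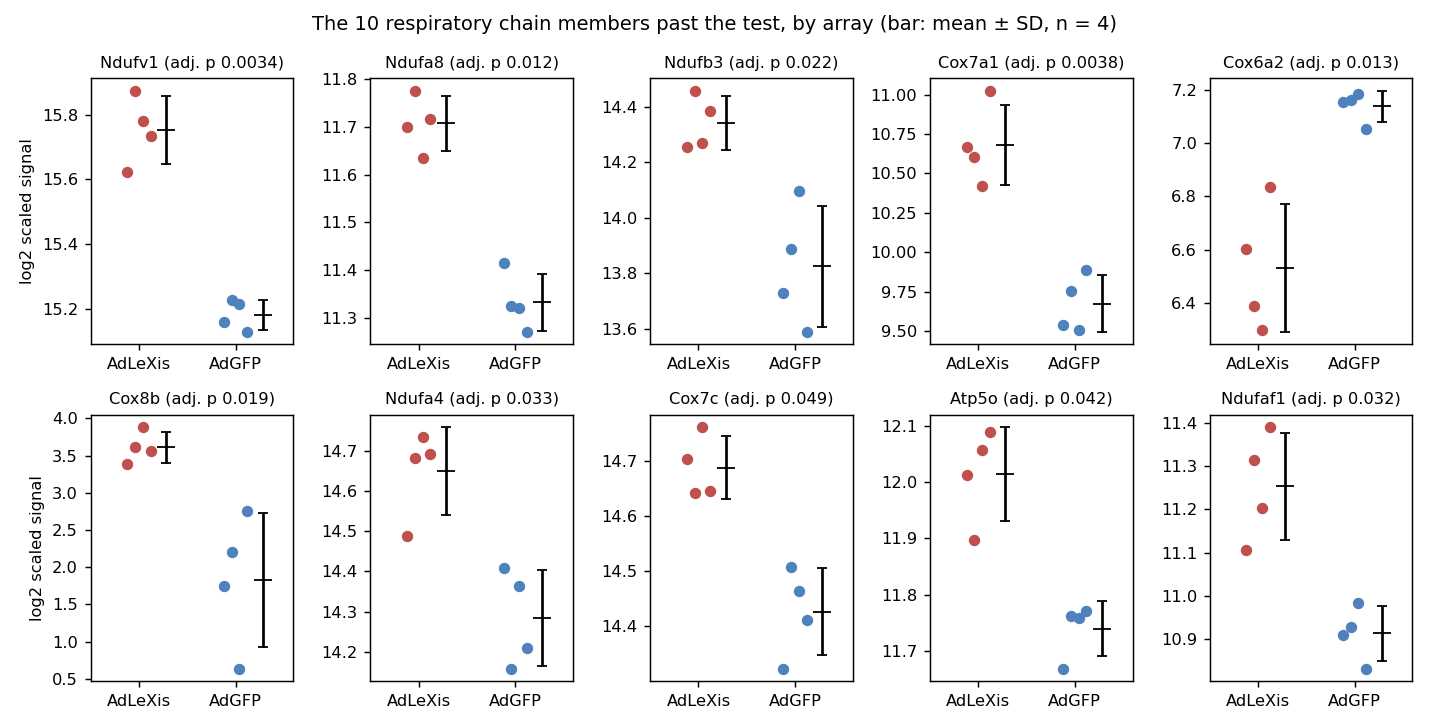
Log2 scaled signal of the 10 members that passed the test, one point per array, AdLeXis in red and AdGFP in blue, with the mean ± SD of 4 arrays in black; each panel has its own axis, which does not start at 0. The 4 arrays of a group lie on one side of the other 4 in every panel, with AdLeXis lower only for Cox6a2, and the AdGFP points of Cox8b are not well above background.

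Complex V, the ATP synthase, had 15 members, of which 1 rose and 0 fell. The one that rose is 6.67%, where 8.73% of all genes rose and 8.77% fell. Under other scalings there were 0 higher and 0 lower with the array median, 4 higher and 0 lower with quantile scaling, 3 higher and 0 lower with loess and 5 higher and 0 lower with normexp. Of all genes, 4.82%, 8.77%, 9.33% and 12.6% were higher in these settings. The mean over the 15 members was 15.07, 15.17, 15.16 and 15.05 on the AdLeXis arrays, against 14.98, 15.07, 15.08 and 14.89 on the AdGFP arrays, and the groups overlapped. Atp5o, the subunit that joins the catalytic head to the peripheral stalk, gave 12.01, 11.90, 12.06 and 12.09 on the AdLeXis arrays, against 11.67, 11.76, 11.76 and 11.77 on the AdGFP arrays. There was no overlap, and the difference was 0.27 (SE 0.08, 95% confidence interval 0.10 to 0.45, limma adjusted p = 0.0425). The call was lost with the array median, quantile scaling and normexp (adjusted p = 0.195, 0.0646 and 0.136), and in 7 of the 8 fits that left out 1 array, all but the one without AdLeXis replicate 2 (adjusted p = 0.047 to 0.111 over the 8). Atp5b, the catalytic beta subunit, gave 16.27, 16.41, 16.44 and 16.26 on the AdLeXis arrays, against 16.43, 16.37, 16.47 and 16.44 on the AdGFP arrays. It overlapped, and its difference was -0.08 (SE 0.08, 95% confidence interval -0.26 to 0.10, limma adjusted p = 0.515), or 0.13 with quantile scaling.

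By position in the enzyme, the 5 genes of the catalytic head with its central stalk had a median difference of 0.03 (-0.05 with the array median). The 7 of the peripheral stalk and membrane part, the ring genes apart, had one of 0.19. In the second set Atp5h and Atp5f1, of the peripheral stalk, differed by 0.23 (limma adjusted p = 0.0611) and 0.19 (limma adjusted p = 0.21), and Atp5k, of the membrane part, by 0.23 (limma adjusted p = 0.0921). The AdLeXis arrays of Atp5h and Atp5k lay above all their AdGFP arrays. The probe that stands for Atp5k is placed on chromosome Y in the files, while RefSeq has the gene on chromosome 5, so a near-identical copy may share its signal. For the other 87 members tested the chromosomes were the same. The kept Atp5k probe placed on chromosome 5 differed by 0.29 (limma adjusted p = 0.0472 over all probes). A further Atp5k probe placed on chromosome Y differed by 0.31 (limma adjusted p = 0.115 over all probes). Atp5g1, Atp5g2 and Atp5g3 encode the same mature ring protein, and their median difference was 0.09, with none called (0 higher, 0 lower by limma, and 0 at an unadjusted p under 0.05). The 8 members of complex V not described singly differed by -0.03 (Atp5g1) to 0.14 (Atp5c1).

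Assembly factors help to build complex I and are not part of the finished enzyme. Of the 7 named Ndufaf, 1 rose and 0 fell, where 8.73% of all genes rose and 8.77% fell. Under other scalings there were 0 higher and 2 lower with the array median, 1 higher and 1 lower with quantile scaling, 1 higher and 1 lower with loess and 2 higher and 1 lower with normexp. In these settings 4.82%, 8.77%, 9.33% and 12.6% of all genes were higher, and 11.2%, 8.98%, 8.65% and 40.4% lower. Ndufaf1, which acts in building the membrane arm, gave 11.11, 11.31, 11.20 and 11.39 on the AdLeXis arrays, against 10.91, 10.93, 10.98 and 10.83 on the AdGFP arrays. There was no overlap, and the difference was 0.34 (SE 0.09, 95% confidence interval 0.14 to 0.54, limma adjusted p = 0.0321). The call was lost with the array median and normexp (adjusted p = 0.183 and 0.0726) and in 7 of the 8 fits that left out 1 array, all but the one without AdLeXis replicate 1 (adjusted p = 0.0227 to 0.0857 over the 8). Next by p were Ndufaf6, Ndufaf5 and Ndufaf7, whose AdLeXis arrays all lay below their AdGFP arrays. Ndufaf6 gave 10.60, 10.58, 10.82 and 10.46 on the AdLeXis arrays, against 10.89, 10.94, 11.11 and 10.88 on the AdGFP arrays, a difference of -0.34 (SE 0.10, 95% confidence interval -0.57 to -0.11, limma adjusted p = 0.052). With the array median, quantile or loess scaling and normexp it was called lower (adjusted p = 0.0339, 0.0364, 0.0427 and 0.00502). Ndufaf5 differed by -0.29 (limma adjusted p = 0.064). Ndufaf7, a methyltransferase, differed by -0.46 (limma adjusted p = 0.0701), by -0.54 with the array median, where it was called lower (adjusted p = 0.0374), and by 0.03 with normexp. The median over the 7 was 0.06, and -0.02 with the array median.

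Of the members taken by name that are no subunits, Atp5s, Atp5sl and the pseudogene Atp5c1-ps, none passed (0 of 3 by limma, with 1 of 3 at an unadjusted p under 0.05). Of the 30 members with more than 1 kept probe, 7 had probes whose differences were of opposite sign, and the spread between probes was under 0.3 on the log2 scale for 25. The widest spreads were 1.06 for Cox7c, 0.96 for Atp5j, 0.61 for Ndufa3, 0.47 for Atp5l and 0.41 for Ndufb11, against 0.28 for Atp5g2. Of these, Atp5j, Ndufa3 and Atp5g2 are described here, after their values were seen. Atp5j, of the peripheral stalk, had a probe for its RefSeq transcript that differed by 0.09 and a second, for an Ensembl transcript, that gave 6.57, 6.65, 6.80 and 6.42 on the AdLeXis arrays, against 5.83, 5.71, 5.42 and 5.28 on the AdGFP arrays. The second differed by 1.05 (limma adjusted p = 0.0036 over all probes). Ndufa3 gave 15.55, 14.43, 15.44 and 15.40 on the AdLeXis arrays, against 15.43, 15.61, 15.50 and 15.41 on the AdGFP arrays, so that its difference of -0.28 and its wide interval rest on AdLeXis replicate 2, and its second probe differed by 0.33. Atp5g2 gave 15.64, 15.75, 15.79 and 15.62 on the AdLeXis arrays, against 15.46, 15.99, 15.79 and 14.71 on the AdGFP arrays, with AdGFP replicate 4 low. Its difference was 0.21, and its second probe differed by -0.07.

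How many members were called depended on the scaling, and their probes were bright: the median of their mean log2 signals was 14.5, against 7.72 over all genes tested. Signals of different probes are not compared here as transcript levels. With the 75th percentile, all genes with a mean signal of 14 to 16 had a median difference of -0.06 and the 52 members among them 0.12, a gap of 0.17. With quantile scaling these were 0.04 and 0.23, a gap of 0.19. The gap was 0.18 with cyclic loess and 0.21 with normexp. For the 14 members with a mean signal of 12 to 14 it was 0.10 with the 75th percentile and 0.11 with quantile scaling, and for the 6 at 16 and over 0.24 and 0.24. For the 4 members under 8 the gap ran the other way, -0.29 with the 75th percentile, -0.24 with quantile scaling and -0.27 with loess, and 0.03 with normexp. These gaps describe the arrays, and no test was made of them. At 14 to 16, 4 of the 52 members rose and 0 fell with the 75th percentile, beside 43 and 110 of all 1115 genes. With quantile scaling 19 of the 52 rose and 0 fell, beside 112 and 64 of the 1115. At 12 to 14, 0 of 14 members rose with the 75th percentile, beside 200 of 2146 genes, and at 16 and over 0 of 6, beside 3 of 400. These counts were not tested either. Over all 88 members the median stood 0.11 above that of all genes with the 75th percentile, 0.11 with the array median, 0.21 with quantile scaling, 0.17 with loess and 0.39 with normexp.

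**Figure D3:**
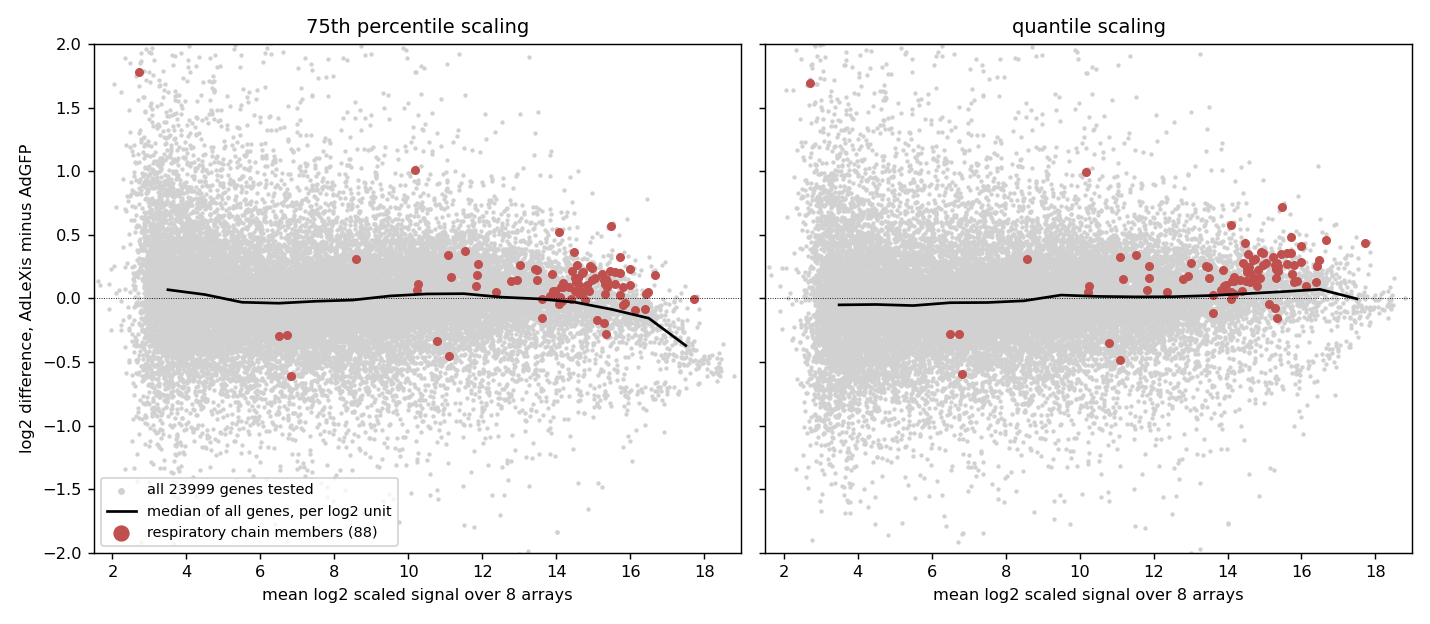
Log2 difference, AdLeXis minus AdGFP, against the mean log2 scaled signal over 8 arrays, with the 75th percentile scaling on the left and quantile scaling on the right; grey points are all 23999 genes tested, red points the 88 members, and the black line the median of all genes per log2 unit of signal. The black line bends below 0 for the brightest genes on the left and stays near 0 on the right, and the members, most of them at high signal, lie mostly above it in both; 108 genes on the left and 100 on the right lie beyond the vertical limits of 2.

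**Figure D4:**
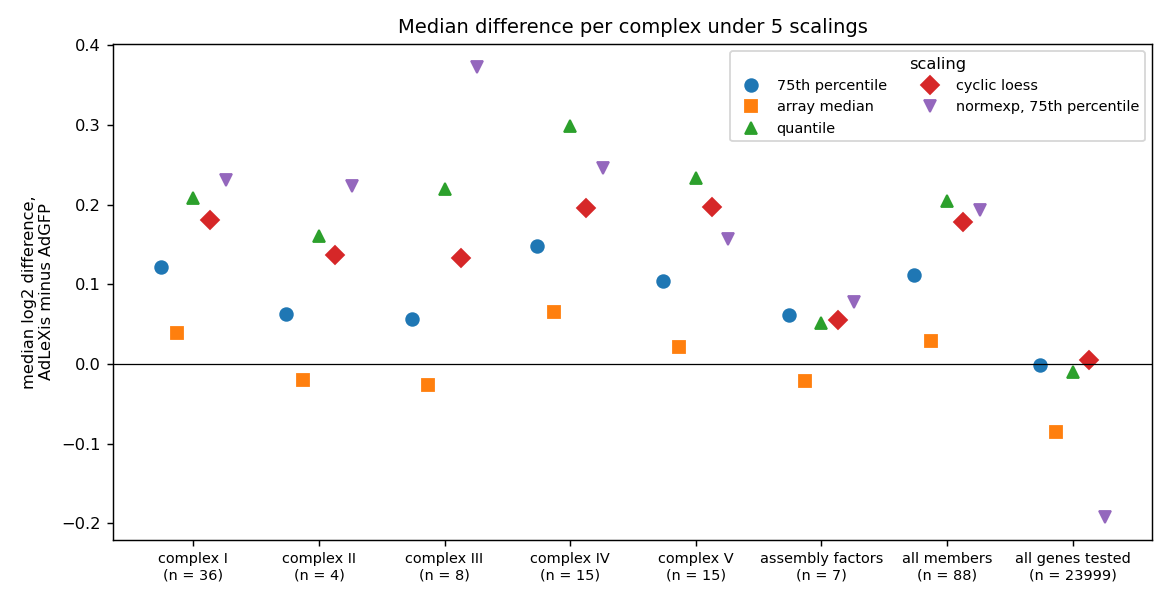
Median log2 difference, AdLeXis minus AdGFP, over the members tested of each complex, the complex I assembly factors, all members and all genes tested, with one symbol per scaling. The medians of complexes I, IV and V stay above 0 in all 5, while those of complexes II and III and of the assembly factors fall below 0 with the array median.

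Subunits encoded by mitochondrial DNA were read beside the nuclear ones. Of 13 such transcripts on the array 6 fell and 0 rose, beside 8.77% and 8.73% of all genes. The median difference was -0.22, which turned to 0.03 with quantile scaling, where 1 was lower and 2 higher (8.98% and 8.77% of all genes). All genes with a mean signal of 16 and over, where COX2 lies, had a median of -0.23, with 157 of 400 lower. With quantile scaling these were 0.04 and 16 of 400. What part signal level has in the values of these transcripts was not tested. COX2, a catalytic subunit of complex IV, gave 17.67, 17.42, 17.41 and 17.50 on the AdLeXis arrays, against 18.08, 17.95, 18.08 and 18.12 on the AdGFP arrays, with every AdLeXis array below every AdGFP array. Its difference was -0.56 (limma adjusted p = 0.00507), and -0.15 with quantile scaling (adjusted p = 0.239). COX1, another catalytic subunit, and the complex I subunit ND2 differed by -0.49 (limma adjusted p = 0.00752) and -0.50 (limma adjusted p = 0.00614), and neither was called with quantile scaling (adjusted p = 0.937 and 0.26). ND6, which is read from the other strand of mitochondrial DNA, gave 6.67, 6.03, 6.43 and 6.02 on the AdLeXis arrays, against 7.64, 6.94, 7.22 and 6.83 on the AdGFP arrays, with no overlap. Its difference of -0.87 (limma adjusted p = 0.0272) was called lower under all 4 other scalings as well (-0.86 with quantile scaling). Loess gave 4 lower and 1 higher of the 13, and normexp 6 and 0. The difference between nuclear and mitochondrial transcripts was not tested.

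**Figure D5:**
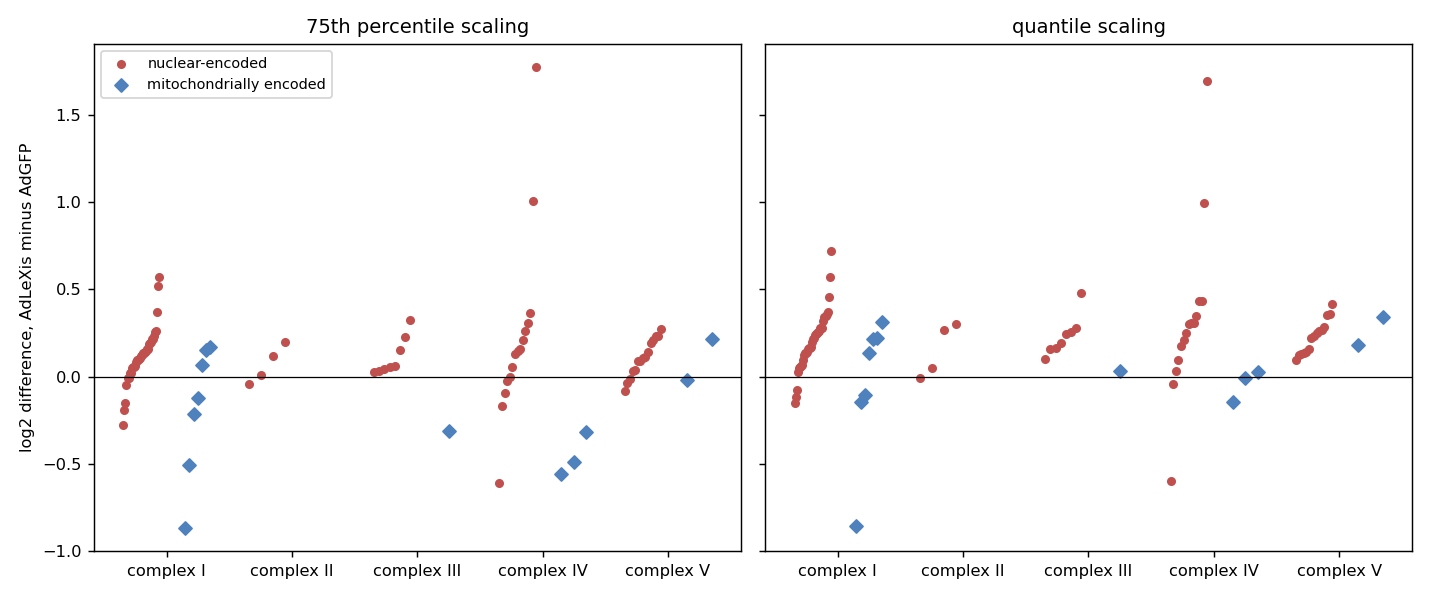
Log2 difference, AdLeXis minus AdGFP, of nuclear-encoded members (red circles) and of the 13 mitochondrially encoded transcripts (blue diamonds) by complex, with the 75th percentile scaling on the left and quantile scaling on the right; points of a set are ordered by value, and complex II has no mitochondrially encoded subunit. The blue points of complexes III and IV lie below 0 on the left and near it on the right.

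Genes that feed the chain or keep its genome were read from lists of textbook members, beside the 8.73% of all genes that rose and 8.77% that fell, or 4.82% and 11.2% with the array median. In the tricarboxylic acid cycle, which makes the NADH and succinate that the chain oxidises, 5 of 17 genes rose and 0 fell, with a median difference of 0.16 (3 higher, 0 lower with the array median). Idh3g, a subunit of NAD-dependent isocitrate dehydrogenase, gave 14.21, 14.39, 14.26 and 14.31 on the AdLeXis arrays, against 13.71, 13.77, 13.72 and 13.77 on the AdGFP arrays, with no overlap. Its difference was 0.55 (limma adjusted p = 0.00269). Suclg2, the GTP-forming succinyl-CoA ligase subunit, and Idh2, the NADP-dependent isocitrate dehydrogenase, rose by 0.61 (limma adjusted p = 0.0035) and 0.54 (limma adjusted p = 0.00587). Among genes for the upkeep and transcription of mitochondrial DNA, 7 of 13 tested rose and 0 fell, with a median of 0.33 (3 higher, 0 lower with the array median). Tfam, which packs and transcribes mitochondrial DNA, gave 11.69, 11.92, 11.99 and 11.93 on the AdLeXis arrays, against 11.41, 11.43, 11.50 and 11.29 on the AdGFP arrays. Its arrays did not overlap, and the difference was 0.47 (limma adjusted p = 0.0122), lost with the array median (adjusted p = 0.0617). Polg2, an accessory subunit of the mitochondrial DNA polymerase, the rRNA methyltransferase Tfb1m and the transcription terminator Mterf1a rose by 0.58 (limma adjusted p = 0.00883), 0.51 (limma adjusted p = 0.00937) and 0.56 (limma adjusted p = 0.00957).

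Of 11 regulators of mitochondrial biogenesis, 2 rose and 0 fell, beside 8.73% and 8.77% of all genes, and with the array median 0 rose. Esrra, a nuclear receptor that binds many of these promoters, gave 12.28, 12.48, 12.27 and 12.33 on the AdLeXis arrays, against 11.97, 12.12, 11.96 and 11.93 on the AdGFP arrays, with no overlap. Its difference was 0.34 (limma adjusted p = 0.0279), and that of Nfe2l2, a regulator of the oxidative stress response, was 0.34 (limma adjusted p = 0.0389). The coactivator Ppargc1a gave 9.74, 9.55, 9.50 and 9.23 on the AdLeXis arrays, against 10.05, 9.18, 9.47 and 9.69 on the AdGFP arrays. Its groups overlapped, and it differed by -0.09 (limma adjusted p = 0.786). Ppargc1b differed by 0.16 (limma adjusted p = 0.618), Nrf1 by 0.21 (limma adjusted p = 0.228), Gabpa by 0.31 (limma adjusted p = 0.0651) and Ppara by 0.27 (limma adjusted p = 0.119).

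Electron carriers and subunits whose names fall outside the patterns numbered 10 tested, of which 1 rose and 2 fell, beside 8.73% and 8.77% of all genes. Atpif1, the inhibitor of ATP synthase running in reverse, had the largest difference of these. It gave 14.79, 14.90, 14.64 and 15.04 on the AdLeXis arrays, against 13.94, 13.90, 13.70 and 14.00 on the AdGFP arrays, and the groups were far apart. Its difference was 0.96 (limma adjusted p = 0.00162). Cox4i2, the low-oxygen isoform of a complex IV subunit, gave 7.39, 7.23, 7.22 and 7.21 on the AdLeXis arrays, against 7.69, 7.76, 7.73 and 7.62 on the AdGFP arrays, with no overlap. Cox4i2 fell by 0.43 on the log2 scale (limma adjusted p = 0.00885), and Coq10a, a ubiquinone-binding protein, fell by 0.26 (limma adjusted p = 0.04). Cox4i1, the common isoform, differed by 0.21 (limma adjusted p = 0.182), and with quantile scaling by 0.47 (adjusted p = 0.0195).

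The lists that follow stand beside 8.73% of all genes that rose and 8.77% that fell (4.82% and 11.2% with the array median, 12.6% and 40.4% with normexp). Among other complex I assembly factors 1 of 7 rose and 1 fell, Tmem186 at 0.40 (limma adjusted p = 0.0107) and Timmdc1 at -0.39 (limma adjusted p = 0.0463). With the array median 0 were higher and 1 lower, and with normexp 3 higher and 1 lower. Acad9 and Ecsit, of the same assembly complex, differed by 0.28 (limma adjusted p = 0.0522) and 0.19 (limma adjusted p = 0.154). Among assembly factors of complexes II to V 5 of 30 rose and 0 fell. Under other scalings there were 1 higher and 0 lower with the array median, 3 higher and 0 lower with quantile scaling, 5 higher and 0 lower with loess and 8 higher and 2 lower with normexp. Those that rose were Sco2, which delivers copper to complex IV, at 0.61 (limma adjusted p = 0.0161), Uqcc3, of complex III, at 0.34 (limma adjusted p = 0.0215), Sdhaf1, of complex II, at 0.29 (limma adjusted p = 0.0349), Atpaf1, of complex V, at 0.91 (limma adjusted p = 0.0381), and Sdhaf4, of complex II, at 0.27 (limma adjusted p = 0.0414). Atpaf1 was well above background on all 4 AdLeXis arrays and 1 AdGFP array, and with normexp its difference was -0.39. It met the filter through the group where it was high. It is counted here, but its p-value is no support for a rise. In ubiquinone synthesis 1 of 11 rose and 0 fell, the one being the atypical kinase Coq8a (0.39 (limma adjusted p = 0.0419)). With the array median 0 of these were higher and 0 lower, and with normexp 3 higher and 0 lower. In mitochondrial import 1 of 21 rose and 0 fell, the one being Dnajc19, a relative of an import motor subunit of yeast (0.43 (limma adjusted p = 0.0141)), whose mean over probes was -0.20 (adjusted p = 0.441). Under other scalings the import genes gave 0 higher and 0 lower with the array median, 4 higher and 0 lower with quantile scaling, 4 higher and 0 lower with loess and 12 higher and 1 lower with normexp. Timm50, Timm8a1 and Timm44, of the same import machinery, differed by 0.36 (limma adjusted p = 0.0535), 0.24 (limma adjusted p = 0.0532) and 0.25 (limma adjusted p = 0.0798).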

How the data were processed

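Scanner files of 8 one-colour arrays (4 AdLeXis, 4 AdGFP) held spot intensity on a linear scale, background-subtracted within each array and not scaled between arrays, from Feature Extraction software (Agilent), version 11.5.1.1 per the file headers and 11.5.1.11 per the submitters' processing notes; probe coordinates are mm9. The deposited value table held the same intensity. The deposited flags for spots well above background and outlier spots were used as filters. For each array log2 of the intensity was taken relative to its 75th percentile, outlier spots (196 to 256 per AdLeXis array, 127 to 149 per AdGFP array) were left out, and spots of a probe were averaged. Probes well above background on at least 4 arrays were kept (34450), the kept probe of highest mean stood for its gene, and names were updated through RefSeq (27656 probes by accession, 3401 by symbol). The number of arrays limits the precision.

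Groups were compared with limma 3.58.1 in R 4.3.3, two-sided, with Benjamini-Hochberg adjustment over 23999 genes and a threshold of 0.05. The fit was tested on simulated data in which genes drawn from all those tested were changed. It recovered 22 of 67 changed 1.5-fold, 49 of 67 changed 2-fold and 57 of 66 changed 4-fold. Of 23799 genes left unchanged it called 6. Members' roles, the gene lists and the rule for named genes (the 4 smallest p of each complex and list, core subunits, isoforms and regulators) were chosen with earlier results of these data known. Cox7c, Ndufv2, Ndufa3, Atp5g2, Atp5j, Atp5l, Ndufb11, Sdhaf4, Tnni2, Cidea and Elovl3 were named outside the rule, after their values were seen. A few genes the rule names are not reported here. Array median, quantile, loess and normexp (offset 50) settings, other filters, the mean of probes, a variance trend, a replicate block and leaving out each array were tried. A gene not above background in a group was set against a bound, which is on each array its own signal or, where that is lower, the lowest signal called well above background.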

Additional observations from a re-analysis of the deposited data

Results flagged for a closer look

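On the log2 scale, 13 of 262 sets of 4 arrays had 1 array far from the other 3, by the gap to its neighbour over the range of the set, where chance gives about 5% of sets. In AdLeXis livers these were Ndufa3 on replicate 2 (14.43), Ndufa5 on replicate 2 (15.01), Ndufa9 on replicate 1 (13.67), Cox7b on replicate 4 (14.88), Ndufaf4 on replicate 1 (12.04), Cox4i2 on replicate 1 (7.39), Ecsit on replicate 2 (13.18) and Nfe2l2 on replicate 3 (12.02). In AdGFP livers they were Sdhb on replicate 4 (15.42), Cox5b on replicate 4 (14.46), Cox6c on replicate 1 (14.31), Atp5o on replicate 1 (11.67) and Coq7 on replicate 2 (11.84). Atp5o is the only one of these that is also a called member, and its fit without AdGFP replicate 1 gave a difference of 0.25 (limma adjusted p = 0.103). For Ndufa3 the fit without AdLeXis replicate 2 gave -0.020 (limma adjusted p = 0.915).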

How the results depend on the processing

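The count of members higher in AdLeXis, 9 with the main settings, was 3 with the array median, 28 with quantile scaling, 19 with loess, 33 with normexp, 5 with no filter on dim probes and 14 with a variance trend. The count lower, 1, was 3 with the array median, 2 with quantile scaling or loess, 4 with normexp, 2 with probes well above background on all arrays and 3 with a variance trend. Leaving out 1 array gave 4 to 8 higher and 1 to 2 lower members: 4 higher without AdLeXis replicate 4, 8 without AdLeXis replicate 1 and 5 without each of the other 6, with fewer arrays in each fit, and 2 lower without AdLeXis replicate 3. Over all genes the counts were 1157 higher with the array median and 9685 lower with normexp, and leaving out 1 array gave 1245 to 2087 higher and 1274 to 2037 lower. The complex medians moved by more than the spread between arrays with quantile scaling (0.21 for complex I, 0.16 for complex II, 0.22 for complex III, 0.30 for complex IV, 0.23 for complex V), with normexp (0.23 for complex I, 0.22 for complex II, 0.37 for complex III, 0.25 for complex IV) and with the array median (0.038 for complex I, 0.065 for complex IV); leaving out 1 array gave 0.10 to 0.15, 0.028 to 0.11, 0.030 to 0.099, 0.12 to 0.20 and 0.048 to 0.14 for complexes I to V. Same-numbered arrays of the groups deviated together only weakly (correlations of 0.00156 to 0.117), so the numbers were not taken as pairs; with the replicate block 4 members were higher and 1 lower, with Ndufb3, Ndufa4, Cox7c, Atp5o and Ndufaf1 no longer called (limma adjusted p = 0.0529 to 0.106), and with 1522 higher and 1628 lower genes in all. The sign turned with loess for Sdhc (0.018), Cox5a (0.0066), Cox7a2 (0.037), Cox6a1 (0.14) and Atp5b (0.023). The sign turned with the array median for Sdha (-0.074), Uqcrc2 (-0.030), Uqcrfs1 (-0.022), Cox8a (-0.031) and Ndufv2 (-0.060). The sign turned with normexp for Uqcrfs1 (-0.0051), Cox8b (-0.34), Cox5a (0.42), Cox6a1 (0.078), Atp5b (0.11), Ndufaf7 (0.026), Atpaf1 (-0.39) and Ppargc1b (-0.28). The sign turned with quantile scaling for Cox5a (0.097), Cox7a2 (0.032), Cox6a1 (0.43) and Atp5b (0.13). The sign turned with the mean of probes for Coq7 (-0.0015), Dnajc19 (-0.20), Cox7c (-0.14) and Ndufa3 (0.026). Without single arrays the values near 0 ran from -0.052 to 0.091 for Sdha, -0.097 to 0.043 for Cox7a2, -0.039 to 0.014 for Cox6a1, -0.23 to 0.059 for Ppargc1a, -0.0073 to 0.31 for Ppargc1b, -0.014 to 0.080 for Ndufv2 and -0.050 to 0.38 for Atp5g2. The cause of these changes was not tested. The value table holds the scanner intensities, so it was not run as an alternative. Dim probes such as that of Cox8b limit what their fold can say, and 4 arrays per group limit the precision of all values.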
